A study of Mus musculus with 5 samples.

Results

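The hypoxia pathway was examined in mouse retina through 10 genes: the oxygen-regulated transcription factor subunits Hif1a and Epas1, the prolyl hydroxylases Egln1 and Egln3 that sense oxygen, and 6 targets, Adm, Bnip3, Ankrd37, Car9, Ndrg1 and P4ha1. The genes were chosen by name, with earlier results of these data known. Every probe set annotated with exactly 1 of these symbols was taken, which gave 22 of the 45101 probe sets and 10 of 18193 genes. Diabetic pools were compared with control pools to ask whether transcripts of this pathway differ within weeks of diabetes. Total retinal RNA was measured on 5 Affymetrix arrays, 1 per pool. Diabetic replicates 1 and 2 were each made of 4 retinas of 2 mice with diabetes of 5 weeks, induced with streptozotocin, a toxin of insulin-producing beta cells, and diabetic replicate 3 of 6 retinas of 3 mice with experimentally induced diabetes of 3 to 4 weeks. Both control pools were made of 4 retinas of 2 untreated mice, matched in age and with normal blood glucose. The labels give no strain, sex or age. A p-value compares pools of 2 or 3 mice, and the number of arrays limits the precision.

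Hypoxia-inducible factors are pairs of an oxygen-regulated alpha subunit and a stable beta subunit. When oxygen is present, EGLN enzymes hydroxylate prolines of the alpha subunit, the VHL protein binds it and it is degraded. When oxygen is low, the alpha subunit persists, pairs with ARNT and binds a short DNA element near its targets. Most of this control acts on the protein, so a transcript level of Hif1a or Epas1 is no measure of factor activity, whereas transcripts of the targets are a usual readout. Photoreceptors use much of the oxygen that reaches the retina, and the inner retina depends on its own vessels.

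The element bound by these factors has the core ACGTG or GCGTG, and the promoter stretches below are shown because 6 of the genes are known as targets and the 2 EGLN genes are themselves known to be induced. In the 250 bases upstream of the annotated start, from the RefSeq promoter table of build GRCm38.p6, ACGTG occurred on either strand in 7 of the 8 member promoters given there, or 87.5%, against 16.6% of all 32851 promoters in the table and 21.7% of those of the genes tested. GCGTG occurred in 5 of the 8, or 62.5%, against 28.2% of all promoters and 45.4% of those of the genes tested. The 8 include Hif1a, while Epas1 and the target Ndrg1 had no entry in that table. Matches may overlap, and the palindrome CACGTG counts as ACGTG on both strands. A match is a description of these letters and not a bound site. Each stretch of 60 bases is on the strand of its gene, 5′ to 3′, with the matches inside it in capitals. Matches elsewhere in the 250 bases are counted but not printed.
Hif1a: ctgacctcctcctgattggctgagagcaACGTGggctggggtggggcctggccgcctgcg
Egln1: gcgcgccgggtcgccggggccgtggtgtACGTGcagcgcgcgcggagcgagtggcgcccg
Egln3: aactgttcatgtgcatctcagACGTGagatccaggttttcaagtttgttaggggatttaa
Adm: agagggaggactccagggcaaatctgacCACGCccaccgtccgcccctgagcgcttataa
Bnip3: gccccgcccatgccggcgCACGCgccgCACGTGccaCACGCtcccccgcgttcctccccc
Ankrd37: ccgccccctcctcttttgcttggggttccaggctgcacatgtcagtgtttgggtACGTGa
Car9: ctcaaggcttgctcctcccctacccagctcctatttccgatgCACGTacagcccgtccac
P4ha1: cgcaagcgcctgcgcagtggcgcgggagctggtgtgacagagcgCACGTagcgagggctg

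The stretches lie at chr12:73907769-73907828 (plus strand) for Hif1a, chr8:124949291-124949350 (minus) for Egln1, chr12:54204065-54204124 (minus) for Egln3 and chr7:110627575-110627634 (plus) for Adm. Those of Bnip3, Ankrd37, Car9 and P4ha1 lie at chr7:138909582-138909641 (minus), chr8:45999851-45999910 (minus), chr4:43506966-43507025 (plus) and chr10:59323236-59323295 (plus). In Ankrd37, Car9 and P4ha1 the nearest match begins 6, 18 and 16 bases before the start. The Bnip3 stretch holds the palindrome and 2 further GCGTG matches, while Adm has GCGTG matches 90 and 54 bases before the start and no ACGTG. Hif1a also has the palindrome, which begins 135 bases before the start and lies outside its printed stretch. The single match of Egln3 begins 229 bases upstream. The starts used for Hif1a, Ankrd37 and P4ha1, and the stretches printed for them, lie inside the annotated gene spans.

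Levels are given as log2(signal + 120.6), where the deposited signal is a linear intensity per probe set and the pseudocount is the 20th percentile of all values. Values of a gene are listed by replicate number, diabetic replicates 1, 2 and 3 and control replicates 1 and 2. Levels of different genes are not compared, since each rests on its own probes. The probe set of highest mean stood for its gene, and the upper 60% of genes by mean level, 10916 genes, were tested with limma. Of the 10 hypoxia genes 7 passed this filter, and Egln3, Adm and Car9 did not. The retina label was checked against markers: all 4 analysed rod genes and all 5 Muller glia genes were above the filter, and 0 of 6 lens genes were. So were 5 of 6 pigment epithelium genes and 3 of 5 melanosome genes. The pigment epithelium sum was 47463 to 73654 in diabetic and 91688 to 137250 in control pools, without overlap. Summed melanosome signals were 22144, 2672 and 13660 in the diabetic pools, against 4684 and 18348 in the control pools. Summed signals of 7 skeletal muscle genes were 2366, 1736 and 50661 in the diabetic pools, against 1508 and 30994 in the control pools, so diabetic replicate 3 and control replicate 2 stood apart. Diabetic replicate 2 had a beta-actin ratio, 3' over 5' control probe sets, of 4.32, against 2.01 to 2.71 in the other 4 arrays. In bulk retina, fewer cells of a type and less RNA per cell cannot be told apart.

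None of the 7 tested hypoxia genes passed the test of diabetic against control pools (limma, Benjamini-Hochberg adjusted p = 0.999 for each). All 7 intervals included 0, and they ran from -0.22 at the lowest bound to 0.43 at the highest. In 6 of 7 the mean was higher in diabetic pools, or 85.7%, where 51.9% of all genes tested had a difference above 0. The median log2 difference of the 7 was 0.08, against 0.01 over all genes, and their median standard error of 0.11 was larger. Without diabetic replicate 2 that median was 0.04, with 5 of 7 above 0. Across the genome the adjusted test called 0 of 10916 genes, or 0%, and 370 genes, or 3.39%, had an unadjusted p under 0.05 (1.8% higher and 1.59% lower), among them 0 of the 7. The smallest unadjusted p of the 7 was 0.115. In the plot of the genes by pool, diabetic and control values lie among each other in 9 of the 10 panels.

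**Figure D1:**
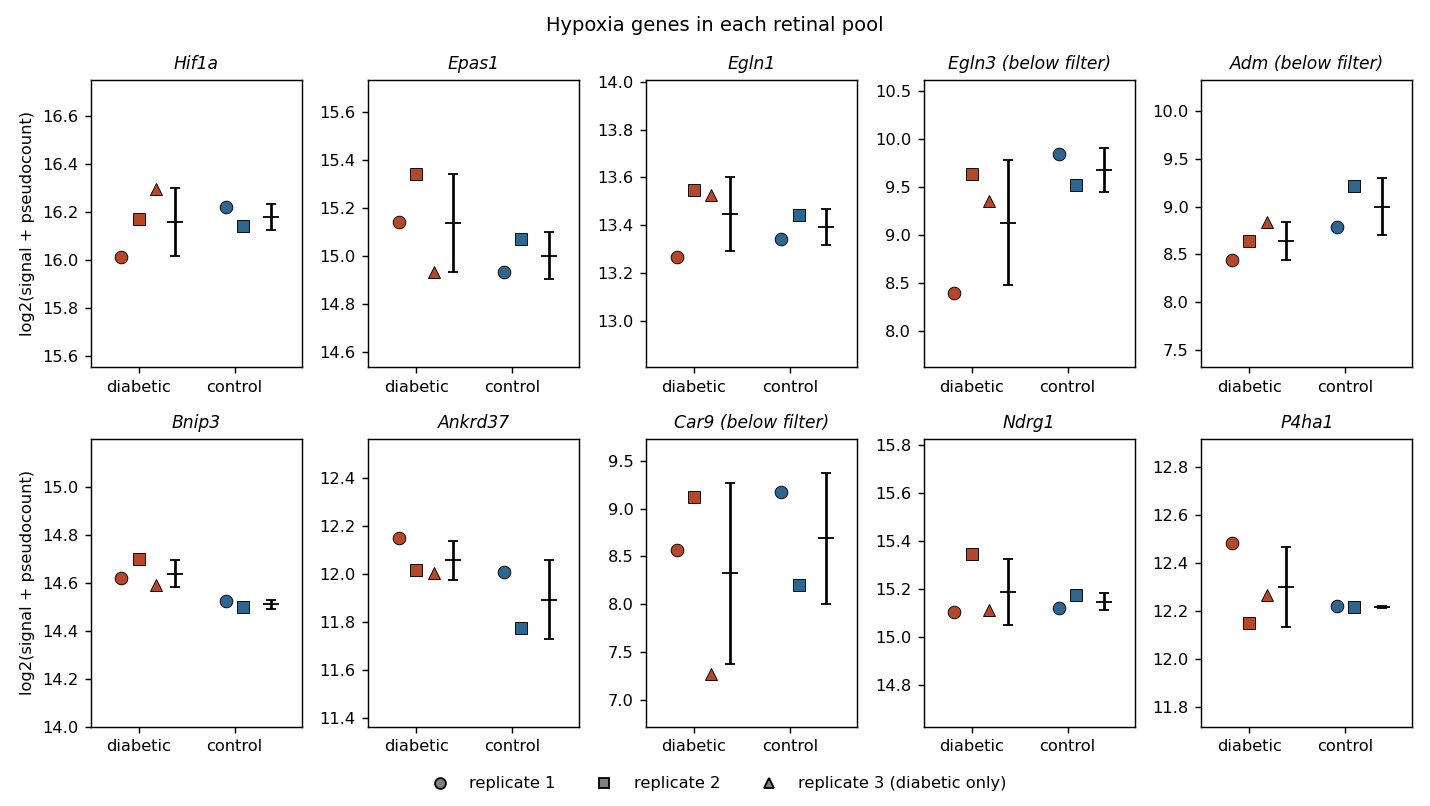
Level of each hypoxia gene, as log2(signal + 120.6), in the 3 diabetic (red) and 2 control (blue) pools, with the group mean and SD beside the points. Axes span 1.2 log2 units for the 7 tested genes and 3 for the 3 genes below the filter. Only in Bnip3 do all diabetic pools lie on one side of both controls.

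Hif1a encodes the alpha subunit of the factor present in most cell types. Its level was 16.01, 16.17 and 16.29 in the diabetic pools, against 16.22 and 16.14 in the control pools. The groups overlapped, with both the lowest and the highest pool diabetic. The means were 16.16 ± 0.14 in diabetic (SD, n = 3) and 16.18 ± 0.06 in control pools (SD, n = 2). The log2 difference was -0.02 (SE 0.09, 95% interval -0.22 to 0.18). Leaving out diabetic replicate 1 gave 0.05, and leaving out diabetic replicate 3 gave -0.09.

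The 4 Hif1a probe sets did not behave alike. The second in brightness, 1416035_at, had a log2 difference of 0.07 (SE 0.16). The dimmer 1448183_a_at was at 10.81, 10.39 and 10.68 in the diabetic pools, against 11.23 and 10.84 in the control pools, a difference of -0.41 (SE 0.19). The dimmest, 1431981_at, was at 9.45, 9.25 and 9.80 in the diabetic pools, against 9.87 and 10.18 in the control pools, a difference of -0.52 (SE 0.24). The mean over the 4 gave -0.22. For both dim probe sets every diabetic pool lay below either control and diabetic replicate 2 lowest of all. Neither passed the test over all probe sets (limma adjusted p = 0.9998 for both). Over the 15 hypoxia probe sets above the filter, the groups did not overlap in 2 in the lower direction and 1 in the higher. Both lower ones were these Hif1a probe sets. At the gene level, 8.15% of all genes tested did so in the lower direction and 9.99% in the higher. These are shares of genes, and no such share over all probe sets is given here.

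Epas1 encodes the alpha subunit that is prominent in endothelial and perivascular cells. It was at 15.14, 15.34 and 14.93 in the diabetic pools, against 14.93 and 15.07 in the control pools. Diabetic replicates 1 and 2, the pools of 5 weeks, were above both controls, and diabetic replicate 3 lay at the lower control. The means were 15.14 ± 0.20 in diabetic (SD, n = 3) and 15.00 ± 0.10 in control pools (SD, n = 2). The log2 difference was 0.14 (SE 0.12, 95% interval -0.13 to 0.40), which became 0.04 without diabetic replicate 2 and 0.24 when diabetic replicate 3 was left out. Without both arrays of high muscle signal it was 0.31. The second Epas1 probe set lay below the filter, at 9.15 to 9.58 in diabetic and 9.10 to 9.55 in control pools.

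Summed vessel markers overlapped between the groups. The summed signal of 9 endothelial genes was 18424 to 21553 in diabetic and 19321 to 20105 in control pools, and that of 5 pericyte genes was 17110 to 21154 in diabetic and 17385 to 22274 in control pools. Of these, 4 endothelial and 3 pericyte genes were above the filter. In Pecam1, Tek, Tie1 and Emcn, all below the filter, every diabetic pool lay below both controls. Their log2 differences were -0.93, -0.23, -0.49 and -0.33. The groups overlapped in Cdh5, Kdr, Flt1, Cldn5 and Esam. Diabetic replicate 2, with the highest Epas1 level, had the lowest endothelial sum. The part of vessel content in the Epas1 values was not tested.

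Egln1 encodes the main oxygen-sensing prolyl hydroxylase. Its level was 13.27, 13.55 and 13.53 in the diabetic pools, against 13.34 and 13.44 in the control pools. Diabetic replicate 1 was the lowest pool and the other diabetic pools the highest, so the controls lay between them. The log2 difference was 0.06 (SE 0.11, 95% interval -0.19 to 0.30), and with single arrays left out it ran between 0.0032, when control replicate 1 was omitted, and 0.14, when diabetic replicate 1 was. Its second probe set gave 0.05 (SE 0.14).

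Egln3 encodes a related hydroxylase whose transcript is itself a target of the pathway. It lay below the filter and was not tested in the comparison of the brighter genes. Its brighter probe set was at signals of 216.2, 671.9 and 534.7 in the diabetic pools, against 796.9 and 612.1 in the control pools. Only diabetic replicate 1 stood well below the rest. The second probe set did not share this, with signals of 406.6, 365.4 and 446.4 in the diabetic pools, against 319.9 and 508.2 in the control pools. With all genes tested, the log2 difference of Egln3 was -0.55 (SE 0.39, 95% interval -1.48 to 0.37).

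**Figure D2:**
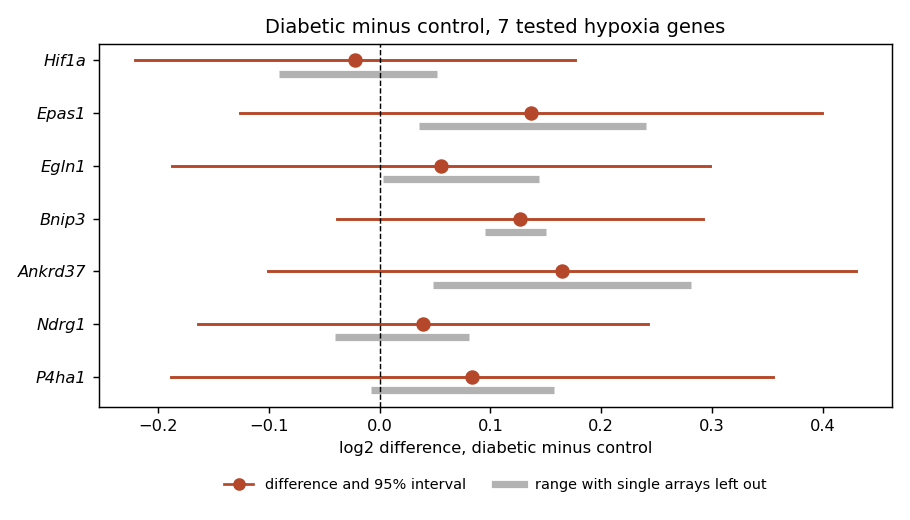
Log2 difference of diabetic minus control pools for the 7 tested hypoxia genes, with 95% intervals (red) and the range of the difference when each of the 5 arrays is left out in turn (grey). All 7 intervals cross 0. The grey range of Bnip3, 0.09 to 0.15, is the narrowest, and those of Hif1a, Ndrg1 and P4ha1 extend to both sides of 0.

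Bnip3 encodes a receptor on the outer mitochondrial membrane that marks mitochondria for autophagy in low oxygen. Its 1 probe set was at 14.62, 14.70 and 14.59 in the diabetic pools, against 14.52 and 14.50 in the control pools. It was the only tested hypoxia gene whose groups did not overlap, 1 of 7 in the higher direction, or 14.3%, where 9.99% of all genes tested did so and 18.1% did so in either direction. The means were 14.64 ± 0.06 in diabetic (SD, n = 3) and 14.51 ± 0.02 in control pools (SD, n = 2). The log2 difference was 0.13 (SE 0.07, 95% interval -0.04 to 0.29, unadjusted p = 0.115), and it lay between 0.09 and 0.15 with single arrays left out.

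Ankrd37 encodes an ankyrin repeat protein and is induced in low oxygen in many cell types. It was at 12.15, 12.02 and 12.00 in the diabetic pools, against 12.01 and 11.78 in the control pools. The means were 12.06 ± 0.08 in diabetic (SD, n = 3) and 11.89 ± 0.17 in control pools (SD, n = 2). Control replicate 2 alone was low, while control replicate 1 lay beside diabetic replicates 2 and 3. The log2 difference of 0.16 (SE 0.12, 95% interval -0.10 to 0.43) was the largest of the 7, and became 0.05 without control replicate 2 and 0.28 when control replicate 1 was left out.

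P4ha1 encodes the catalytic subunit of a collagen prolyl hydroxylase, which acts on collagen chains and not on the HIF subunits. It was at 12.48, 12.15 and 12.27 in the diabetic pools, against 12.22 and 12.21 in the control pools, both inside the diabetic range. The log2 difference was 0.08 (SE 0.12, 95% interval -0.19 to 0.36), which became -0.01 without diabetic replicate 1 and 0.16 when diabetic replicate 2 was left out. The second, dim probe set was at signals of 801.9, 279.0 and 812.0 in the diabetic pools, against 484.2 and 470.7 in the control pools, again lowest in diabetic replicate 2.

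Ndrg1, a stress-responsive gene also known for its role in myelinating cells, had 5 probe sets, all above the filter. The brightest, 1456174_x_at, whose suffix marks probes that may also match other transcripts, was at 15.10, 15.35 and 15.11 in the diabetic pools, against 15.12 and 15.17 in the control pools. Its log2 difference was 0.04 (SE 0.09, 95% interval -0.16 to 0.24), and -0.04 without diabetic replicate 2, the only pool above the others. The next 3 probe sets differed by 0.02 to 0.05.

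The fifth Ndrg1 probe set, 1450977_s_at, was at 13.17, 12.24 and 12.83 in the diabetic pools, against 12.39 and 12.07 in the control pools, a log2 difference of 0.52 (SE 0.24, limma adjusted p = 0.9998 over all probe sets). Diabetic replicates 1 and 3 were high there, and diabetic replicate 2 lay between the controls. Diabetic replicate 2 was the highest of the 5 pools in both brightest Ndrg1 probe sets and the lowest in 1450976_at and 1423413_at. The heat map of probe sets shows this split. Over the 15 hypoxia probe sets above the filter, diabetic replicate 2 held the highest value in 5 and the lowest in 6, or 33.3% and 40%, against 27.5% and 27.1% over all probe sets with 1 symbol above the filter. The part of its raised beta-actin ratio in these values was not tested.

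**Figure D3:**
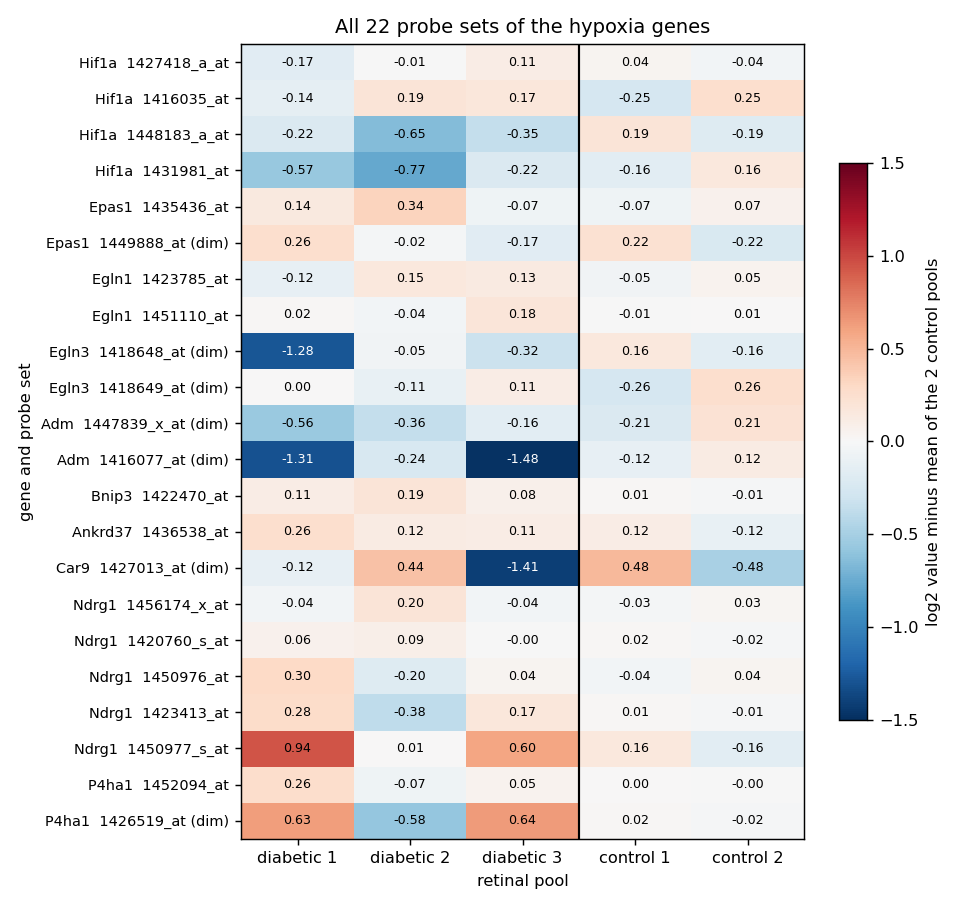
Each of the 22 hypoxia probe sets (rows) in the 3 diabetic and 2 control pools (columns), as the log2 value minus the mean of both controls. Rows marked dim lay below the filter. Both dimmer Hif1a rows above the filter are negative in all 3 diabetic pools, and the last Ndrg1 row reaches 0.94 in diabetic replicate 1. Diabetic replicate 2 is negative where both other diabetic pools are positive in 2 Ndrg1 and 2 P4ha1 rows. The same holds, with small values, in the dimmer Egln1 row and the dimmer Egln3 row.

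Adm encodes adrenomedullin, a peptide that dilates vessels. Its probe set of highest mean, 1447839_x_at, another with that suffix, was at signals of 226.1, 278.9 and 338.8 in the diabetic pools, against 321.2 and 472.1 in the control pools. Diabetic replicate 3 lay above control replicate 1, so the groups overlapped. The other probe set, 1416077_at, was at signals of 40.4, 216.3 and 22.04 in the diabetic pools, against 246.2 and 314.0 in the control pools, with every diabetic pool below both controls. With all genes tested, the log2 difference of Adm was -0.36 (SE 0.28, 95% interval -1.02 to 0.31).

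Car9 encodes a membrane carbonic anhydrase, a widely used marker of hypoxic tumour cells. Its signals were 259.0, 437.1 and 34.2 in the diabetic pools, against 455.9 and 174.6 in the control pools. Diabetic replicate 3 was the lowest pool, and on the log2 scale the SD within either group was wider than the difference between their means. With all genes tested, the log2 difference was -0.37 (SE 0.57, 95% interval -1.70 to 0.96). No detection call was made for Egln3, Adm or Car9, since how the background under such low signals was corrected is not given in the sources used here.

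Other genes of oxygen sensing were taken from a list of 17, of which 16 were tested. The list held the partners of the alpha subunits, the VHL ligase and coactivators. None of the 16 passed (limma, 0 called, and 0 at an unadjusted p under 0.05), with 4 above 0 and 12 below 0 and a median log2 difference of -0.01. That balance rested on single arrays, with 11 above 0 without control replicate 2 and 10 without diabetic replicate 1. Vhl, the substrate receptor of the ligase, differed by -0.05 (SE 0.11), the hydroxylase gene Egln2 by -0.01 (SE 0.14) and Hif1an, which hydroxylates an asparagine of the alpha subunits, by -0.12 (SE 0.11). Hif3a, an alpha subunit with inhibitory isoforms, differed by 0.30 (SE 0.15). It was named after its values were seen, as its groups alone in this list did not overlap. That made 1 of 16 in the higher direction, or 6.25%, against 9.99% of all genes tested. The other Hif3a probe sets, all below the filter, gave 0.08, -0.11, -0.30, 0.003 and -0.13.

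Arnt, the beta subunit, had the largest difference of this list at -0.55 (SE 0.34, 95% interval -1.32 to 0.22). It was at 12.45, 12.75 and 11.42 in the diabetic pools, against 12.53 and 12.98 in the control pools. Diabetic replicate 3 alone was low, and without it the difference was -0.16. A second probe set of nearly the same brightness, 1419996_s_at, was at 12.45, 12.27 and 12.29 in the diabetic pools, against 12.39 and 12.49 in the control pools, with diabetic replicate 3 beside diabetic replicate 2. A dimmer one, 1421721_a_at, was at 10.13, 9.71 and 9.73 in the diabetic pools, against 10.31 and 10.39 in the control pools, with every diabetic pool below both controls. The remaining Arnt probe sets, 1425064_at and 1449696_at, lay below the filter and went the other way, at 0.19 and 0.09. Arnt2, the beta subunit of neurons, differed by 0.20 (SE 0.14), and by 0.06 without control replicate 2. Its other probe sets, 1420670_at and 1420669_at, lay below the filter and gave -0.57 and -0.68. In both of these every diabetic pool was below both controls.

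Further target genes were taken from a list of 48, of which 43 are analysed here and 36 were tested. None passed the adjusted test (limma), with 23 above 0 and 13 below 0 and a median log2 difference of 0.05, which was 0.01 without control replicate 2. At an unadjusted p under 0.05 there were 4 of 36, or 11.1%, against 3.39% of all genes tested. The groups did not overlap in 6 in the higher direction, or 16.7%, against 9.99% of all genes, and in 1 in the lower direction, or 2.78%, against 8.15%. The list was chosen with earlier results of these data known, so these shares are a description and no test.

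The 4 genes at an unadjusted p under 0.05 were Pfkfb3, Apln, Mxi1 and Car12, each with an adjusted p of 0.999 (limma). Pfkfb3, an enzyme that drives glycolysis through fructose bisphosphate, was at 11.10, 11.28 and 11.10 in the diabetic pools, against 10.66 and 10.86 in the control pools, a log2 difference of 0.40 (SE 0.14). Apln, which encodes the endothelial ligand apelin, was at 10.30, 10.30 and 10.56 in the diabetic pools, against 9.997 and 9.78 in the control pools, a difference of 0.50 (SE 0.18). In these probe sets every diabetic pool was above both controls. The second Pfkfb3 probe set, below the filter, gave -0.11, and the mean of both gave 0.15. Without both arrays of high muscle signal the difference was 0.53 for Pfkfb3 and 0.30 for Apln.

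Mxi1, an antagonist of MYC, was at 13.81, 13.71 and 13.73 in the diabetic pools, against 13.46 and 13.60 in the control pools, a log2 difference of 0.22 (SE 0.08). Its second probe set gave -0.18, with overlapping groups. Car12, another membrane carbonic anhydrase, was at 9.99, 10.25 and 9.46 in the diabetic pools, against 10.42 and 11.09 in the control pools, a difference of -0.86 (SE 0.28). Control replicate 2 was its highest pool, and the difference was -0.52 without that array and -0.30 without both arrays of high muscle signal. The summed signal of 6 pigment epithelium markers, of which 5 were above the filter, was 47463 to 73654 in diabetic and 91688 to 137250 in control pools, also highest in control replicate 2. The part of pigment epithelium content in the Car12 values was not tested.

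Among the better known targets, the vascular growth factor gene Vegfa was at 13.31, 13.41 and 13.27 in the diabetic pools, against 13.34 and 13.31 in the control pools. Slc2a1, the glucose transporter of the blood-retina barrier and photoreceptors, differed by 0.12 (SE 0.10, 95% interval -0.12 to 0.35), and with single arrays left out it ran between 0.02, when diabetic replicate 2 was omitted, and 0.20, when diabetic replicate 1 was. Its 3 probe sets gave 0.12, 0.16 and 0.13. Pdk1, which restrains pyruvate entry into mitochondria, differed by -0.06 (SE 0.14), and Ddit4, an inhibitor of mTOR signalling, by -0.03 (SE 0.08). The groups overlapped in the probe set that stood for each of these 4 genes, whereas in both dimmer Slc2a1 probe sets every diabetic pool was above both controls.

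**Figure D4:**
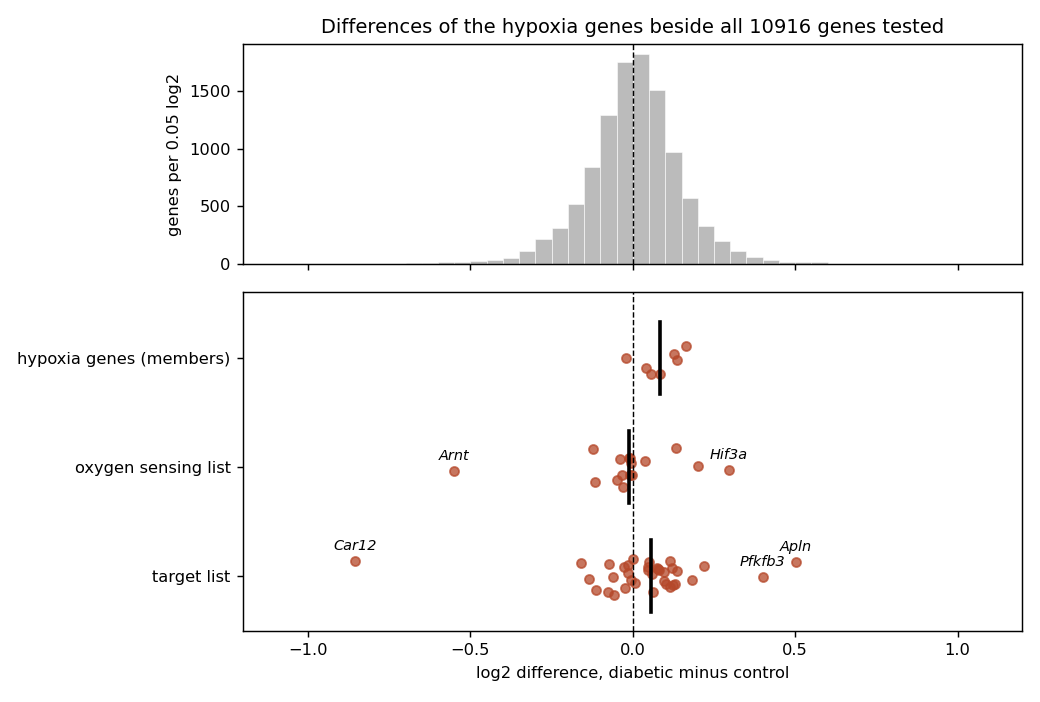
Log2 difference of diabetic minus control pools for all 10916 genes tested (histogram, bins of 0.05, with 9 genes beyond the axis limits of 1.2) and, below, for the 7 tested hypoxia genes, 16 oxygen sensing genes and 36 further targets, each point 1 gene and each bar a median. The medians of 0.08, -0.01 and 0.05 lie in the middle of the histogram, and Arnt, Hif3a, Car12, Pfkfb3 and Apln lie farther out.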

How the data were processed

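The deposited values, made by the authors, are signal intensities, 1 per probe set and array, on a linear scale; the mean of every array without the lowest and highest 2% of values was 2500.0. The summarization software is not given in the sources used here. Of 45101 probe sets, 64 were control probe sets, 34945 had 1 gene symbol, 932 several and 9160 none. Symbols were updated by Entrez ID through the RefSeq table of GRCm38.p6, which matched 34741. Groups came from the disease state and replicate numbers from the titles. All genes were fitted in limma 3.58.1 (R 4.3.3; lmFit, and eBayes with a trend) on log2(signal + 120.6), with 3 residual degrees of freedom, Benjamini-Hochberg adjustment at 0.05 and 95% intervals unadjusted for the number of genes. Array medians on this scale differed by 0.03 over tested genes. The fold scale understates changes of dim genes. The steps were tested on simulated data. The members and lists were chosen with earlier results of these data known. All 10 members are described. Of the pathway lists, genes at an unadjusted p under 0.05 and 10 fixed genes are named, with Pfkfb3 in both groups. Hif3a was added after its values were seen. Alternatives changed the pseudocount, normalization, filter, probe set summary, variance model, replicate block and arrays. Plots were made with matplotlib 3.10.9.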

Additional observations from a re-analysis of the deposited data

Results flagged for a closer look

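Among control probe sets outside the gene comparison, the ratio of 3' to 5' beta-actin signal was 4.32 in diabetic replicate 2, above the 2.52 and 2.71 of the control arrays. The Gapdh ratio of the same array was 0.901, against 0.822 and 0.811 in the controls. Without this array the differences of the hypoxia genes had a median of 0.04 over 7 genes, against 0.08 with it.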

How the results depend on the processing

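Of the hypoxia and pathway list genes tested under each of the 16 alternatives, none passed. Among the named genes, Pfkfb3, Apln, Car12, Arnt2 and Hif3a were not tested in the upper 40%, nor Car12, Arnt2 and Hif3a as means over probe sets. Over all genes, the replicate block called 2 lower and 0 higher genes, leaving out both arrays of high muscle signal 1 lower and 1 higher, and single arrays left out 0 to 1 lower. Genes at an unadjusted p under 0.05 numbered 695 without the filter, 214 in the upper 40%, 579 with array weights, 208 without both muscle arrays and 231 to 606 with single arrays left out. The median of the hypoxia genes was 0.0357 to 0.118 with single arrays left out (0.10 with the replicate block), that of the oxygen sensing list -0.0635 to 0.0423 and that of the targets 0.00682 to 0.0624. The sensing median was 0.0648 without both muscle arrays, and the target median 0.0187 with array weights. Sensing genes above 0 numbered 4 to 11 with single arrays left out, 2 in the upper 40% and 12 without both muscle arrays. Signs turned in small differences: with array weights Hif1a was at 0.0103, Ndrg1 at -0.000109 and Vegfa at -0.0175. Vegfa was at -0.00372 with quantile normalization and -0.0806 as the mean over probe sets, where Hif1a was at -0.22, Hif1an at -0.399, Arnt at -0.174, Ndrg1 at 0.135, Pfkfb3 at 0.147 and Mxi1 at 0.020. Without both muscle arrays Vhl was at 0.0125, Egln2 at 0.163, Arnt at 0.0638 and Pdk1 at 0.0336. With single arrays left out Hif1a ran from -0.0906 to 0.0514, Ndrg1 from -0.0406 to 0.0807, P4ha1 from -0.00751 to 0.158, Vhl from -0.138 to 0.0425, Egln2 from -0.175 to 0.155, Vegfa from -0.0314 to 0.0365, Pdk1 from -0.187 to 0.0451 and Ddit4 from -0.0894 to 0.0325. The cause was not tested. Deviations of same-numbered pools correlated over genes at 0.13 for number 1 and -0.14 for number 2, so the numbers are not shown to pair the pools. As no control has number 3, diabetic replicate 3 does not enter the difference under the block. Fits without 1 control leave a single control pool, assumed to vary like the others.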
